A study of Caenorhabditis elegans with 6 samples.

Results

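The F-box B and F-box C genes (*fbxb*, *fbxc*) and the MATH and BATH genes (*math*, *bath*) were described in the RNA of first-stage (L1) larvae of *Caenorhabditis elegans*. They were taken as every row of the count table whose WormBase symbol begins with *fbxb-*, *fbxc-*, *math-* or *bath-*. This gave 248 of 20392 rows, made up of 110 *fbxb*, 54 *fbxc*, 48 *math* and 36 *bath* genes. Of these, 225 are annotated as protein-coding and 23 as pseudogenes (6 *fbxb*, 6 *fbxc* and 11 *math*). The 3 *mrg-1* libraries came from strain XA6227, genotype *mrg-1* -/-, and were prepared from the L1 progeny of homozygous mothers that had lost the balancer chromosome. The 3 wild-type libraries came from strain N2. Each library pooled the progeny of 2000 to 4000 adults. The *mrg-1* mothers were picked by hand and the N2 mothers were rinsed from plates, so this handling cannot be told apart from genotype. Eggs of both groups hatched without food for 18 h, and the larvae were then fed for 2 h and 30 min.

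F-box proteins are the substrate-binding subunits of SCF ubiquitin ligases, in which the F-box contacts a Skp1 adaptor held on the cullin CUL-1, and a second domain binds the protein to be ubiquitinated. BATH proteins join a MATH domain, which binds substrate, to a BTB domain, which binds the cullin CUL-3, so that one polypeptide does the work of adaptor and receptor; MEL-26 is the best studied worm example. The *math* genes encode MATH domains without a BTB domain, among them MATH-33, the worm counterpart of the ubiquitin protease USP7. In *C. elegans* these families are large, lie in clusters of similar genes and have expanded within nematodes, and most members have no assigned substrate. MRG-1, the product of the mutated gene, is a chromodomain protein of the MRG15 family that binds chromatin.

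Nuclear genes gave 17191073 to 22267493 counts per library, and mitochondrial genes took 8.42% to 12.4% of the counts in *mrg-1* libraries, against 10.6%, 23.1% and 45.6% in wild-type libraries 1, 2 and 3. *mrg-1* itself stood at 4.29 ± 1.90 CPM in *mrg-1* larvae and 21.6 ± 7.57 CPM in wild-type larvae (SD, n = 3 each; edgeR log2 fold change −2.33, SE 0.53, adjusted p = 0.0413). CPM is the count divided by library size in units of 1000000, with library sizes scaled by the trimmed mean of M values. The marker lists of muscle, pharynx, intestine, hypodermis, neurons and primordial germ cells each had counts in every library. The 7 sperm genes summed to 1.88 to 3.63 CPM in *mrg-1* libraries and 0.240 to 0.438 CPM in the wild type, with 3 of the 7 at 0 in all *mrg-1* libraries and 5 in all wild-type libraries; *msp-3*, *msp-19* and *msp-56* had no count in any library. The 3 intestine genes summed to 44.9 to 64.9 CPM in *mrg-1* libraries and 17.9 to 36.2 CPM in the wild type. The 3 muscle genes summed to 3521 to 4563 CPM in *mrg-1* libraries and 1345 to 3425 CPM in the wild type, and the 4 neuronal genes to 722 to 956 CPM in *mrg-1* and 595 to 689 CPM in the wild type, so that these lists, like sperm and intestine, did not overlap. The 9 oocyte and eggshell genes summed to 22.46 to 33.03 CPM in *mrg-1* libraries and 27.65 to 46.74 CPM in the wild type, and overlapped. Of these 9, edgeR called *cpg-2* alone. It fell, with 5, 0 and 12 counts in *mrg-1* and 147, 103 and 385 in the wild type (edgeR adjusted p = 0.0373). *cpg-1* was also lower, without a call (log2 fold change −1.56). *perm-2*, not tested, went the other way, with 5, 5 and 26 counts in *mrg-1* and 0 in every wild-type library. The pharynx pair overlapped, as it summed to 1411 to 1774 CPM in *mrg-1* libraries, against 389 to 1697 CPM in the wild type. The part of such tissue markers in the results on the members was not tested.

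Most members gave few counts in L1 larvae. A few genes carried most of the signal. In TPM (counts per base of gene length, set to the same total over the nuclear genes of each library), taken as the mean of both groups, *bath-42* had the highest level, at 141 TPM in *mrg-1* and 180 TPM in wild-type larvae. It was followed by *math-33* at 146 TPM in *mrg-1*, above *bath-42* there, and 160 TPM in the wild type. Next came *bath-40* with 79.6 TPM in *mrg-1* and 84.9 TPM in the wild type, and *bath-36* with 90.0 TPM in *mrg-1*, above *bath-40* there, and 67.8 TPM in the wild type. The other end of the range was empty, since 43 members had no count in any of the 6 libraries. These were 22 *fbxb*, 13 *fbxc*, 6 *math* and 2 *bath* genes, together 17.3% of the members, whereas 8.33% of all rows were empty. The median level over both groups was 0.137 TPM for the 110 *fbxb*, 0.392 TPM for the 54 *fbxc*, 0.284 TPM for the 48 *math* and 1.36 TPM for the 36 *bath* genes. Over all rows it was 5.64 TPM.

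More members were detected in *mrg-1* than in wild-type larvae. At least 1 count was found for 133, 157 and 166 of the 248 members in *mrg-1* libraries 1, 2 and 3, against 106, 81 and 93 in wild-type libraries 1, 2 and 3. Brought to one depth of 17191073 nuclear counts, the shares were 52.8%, 62.5% and 65.6% in *mrg-1* and 42.7%, 31.5% and 36.6% in the wild type. The groups did not overlap. The same held for all nuclear genes, at 78.2%, 82.6% and 82.0% in *mrg-1* and 75.8%, 68.5% and 73.0% in the wild type. In bulk RNA of whole larvae, more cells that make a transcript and more transcript per cell cannot be told apart. Wild-type libraries 2 and 3, with the fewest members detected, had the highest mitochondrial shares (23.1% and 45.6%). Wild-type library 1, at 10.6%, lay within the *mrg-1* range and detected the most members of the wild type. The part of library quality in these differences was not tested.

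**Figure D1:**
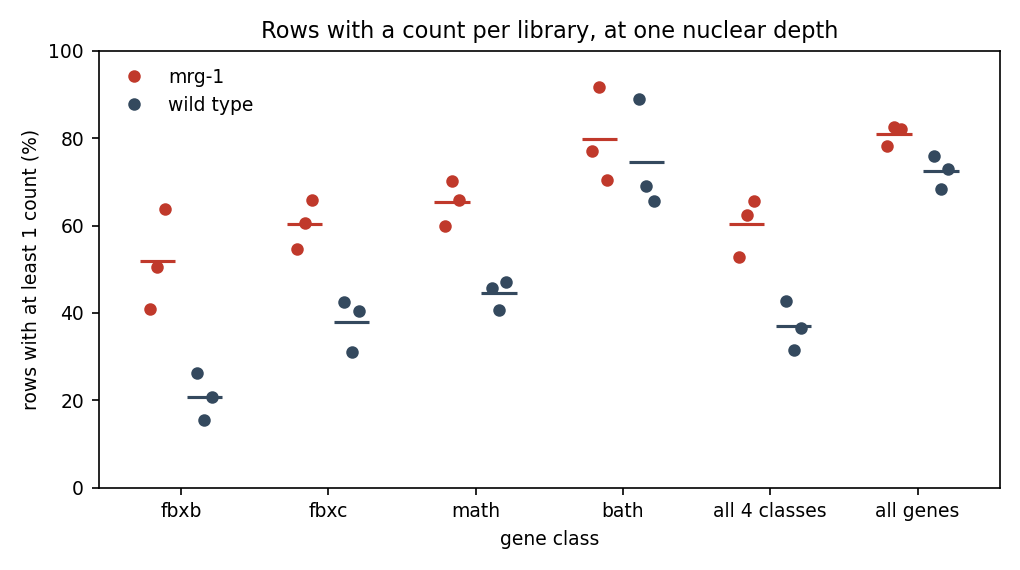
Share of rows with at least 1 count in each library (percent, after bringing each library to one nuclear depth), by gene class; points are libraries, *mrg-1* left and wild type right, and horizontal lines are group means. The *fbxb*, *fbxc* and *math* points of the 2 groups stand apart, while those of the *bath* genes overlap.

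Class by class, the *bath* genes were the ones whose groups overlapped. Of the 110 *fbxb* genes, 46, 57 and 72 had a count in the *mrg-1* libraries and 29, 18 and 24 in the wild-type libraries. Of the 54 *fbxc* genes, 30, 33 and 36 were detected in *mrg-1* and 23, 17 and 22 in the wild type. For the 48 *math* genes the numbers were 29, 34 and 32 in *mrg-1* and 22, 20 and 23 in the wild type. In all 3 classes the lowest *mrg-1* library lay above the highest wild-type library. The 36 *bath* genes had counts for 28, 33 and 26 members in *mrg-1* and 32, 26 and 24 in the wild type.

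Counts in *mrg-1* libraries together with 0 in all 3 wild-type libraries were found for 79 members, 31.9% of the 248, whereas 4 members (1.61%) had the opposite pattern. Over all rows these shares were 9.35% and 1.72%. The 79 were 50 *fbxb*, 12 *fbxc*, 15 *math* and 2 *bath* genes. These shares depend on level, so the rows at 0 in the wild type were also taken as a background. Of the 122 members in that state 64.8% had *mrg-1* counts, and of all 3604 such rows 52.9% did. At least 10 summed *mrg-1* counts were reached by 27.9% of those members and 20.3% of those rows. By class this share was 31.9% for *fbxb* and 36.0% for *fbxc*. It was below that of all rows for *math* (2 of 21, 9.52%) and *bath* (0 of 4). In the other direction, 4 of the 47 members at 0 in *mrg-1* (8.51%) had wild-type counts, against 17.1% of 2049 rows. The 4 were *fbxb-104*, *math-13* and the annotated pseudogenes *fbxc-16* and *fbxc-37*, with 5, 2, 3 and 6 wild-type counts. So 0 of them reached 10 counts, while 70 of the 2049 rows did.

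Of the 79, 14 had counts in all 3 *mrg-1* libraries and 40 in a single one. Of the 1906 rows with the same pattern over all genes, 312 had counts in all 3 and 1025 in a single one, a similar split. For the 40 members it was library 3 in 21, library 2 in 16 and library 1 in 3. *fbxc-7* had 4, 56 and 58 counts in *mrg-1* libraries 1, 2 and 3 and 0 in the wild type, at least 38.8-fold higher in *mrg-1* when the wild type is set at a floor of 3 counts over the group, equal to 0.0397 CPM. *fbxb-13* had 71, 2 and 7 counts in *mrg-1*, at least 26.3-fold, and *fbxb-45* had 25, 1 and 52, at least 25.6-fold. *fbxb-61* was more even among the libraries, with 7, 9 and 27 counts and at least 14.1-fold. Among the *math* genes *math-8* had 25, 7 and 8 counts, at least 13.2-fold. The other members with at least 10 counts and all 3 libraries were *fbxb-106*, *fbxc-20*, *fbxc-24*, *fbxb-84*, *fbxb-25*, *fbxb-63* and *fbxc-17*, between at least 19.4-fold and at least 3.29-fold higher. Single libraries led many of them, as in *fbxc-20* with 2, 2 and 28 counts, *fbxc-24* with 28, 1 and 1, and *fbxb-106* with 2, 1 and 56. *fbxb-60* shows the other extreme, as all its 48 counts lay in *mrg-1* library 2. *fbxb-49* (31 counts), *fbxb-5* (34), *fbxb-118* (18), *fbxb-10* (16) and *fbxb-1* (12) had all their counts in *mrg-1* library 3, where *fbxc-29* had 40 of 41 and *fbxb-105* had 43 of 45. These bounds cover the counting error of the wild-type 0 only, not that of the *mrg-1* counts, and these genes were not tested by edgeR.

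The summed level of a class tells whether these faint genes weigh in the total. The *fbxb* genes summed to 34.0, 30.0 and 61.6 CPM in *mrg-1* libraries and 10.7, 14.3 and 26.8 CPM in wild-type libraries. Their mean was 41.9 ± 17.2 CPM in *mrg-1* and 17.3 ± 8.43 CPM in the wild type (SD, n = 3 each), a 2.43-fold difference with no overlap. The *fbxc* genes summed to 73.3 ± 17.4 CPM in *mrg-1* and 52.4 ± 7.07 CPM in the wild type, 1.40-fold, also without overlap. Without its leading member, the annotated pseudogene *fbxc-41*, the *fbxc* sum was 43.5, 49.9 and 70.9 CPM in *mrg-1* libraries and 39.01, 38.9 and 46.6 CPM in the wild type, and the groups overlapped. The *math* genes, at 460 ± 39.7 CPM in *mrg-1* and 463 ± 112 CPM in the wild type, and the *bath* genes, at 370 ± 10.4 CPM in *mrg-1* and 391 ± 32.8 CPM in the wild type, differed by less than the spread between libraries. *math-33* alone held 64.3% of the *math* level. Without it the *math* sum was 183 ± 13.9 CPM in *mrg-1* and 146 ± 20.9 CPM in the wild type, with the lowest *mrg-1* library at 169.4 CPM and the highest wild-type library at 169.5 CPM. Without *bath-42*, which held 33.5% of the *bath* level, the *bath* sum was 255, 267 and 262 CPM in *mrg-1* and 250.1, 233 and 249 CPM in the wild type, 1.07-fold and without overlap, so its direction turned. No test was run on the sums. With unscaled library totals instead, the *math* and *bath* sums were higher in *mrg-1* on average (log2 0.33 and 0.24).

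**Figure D2:**
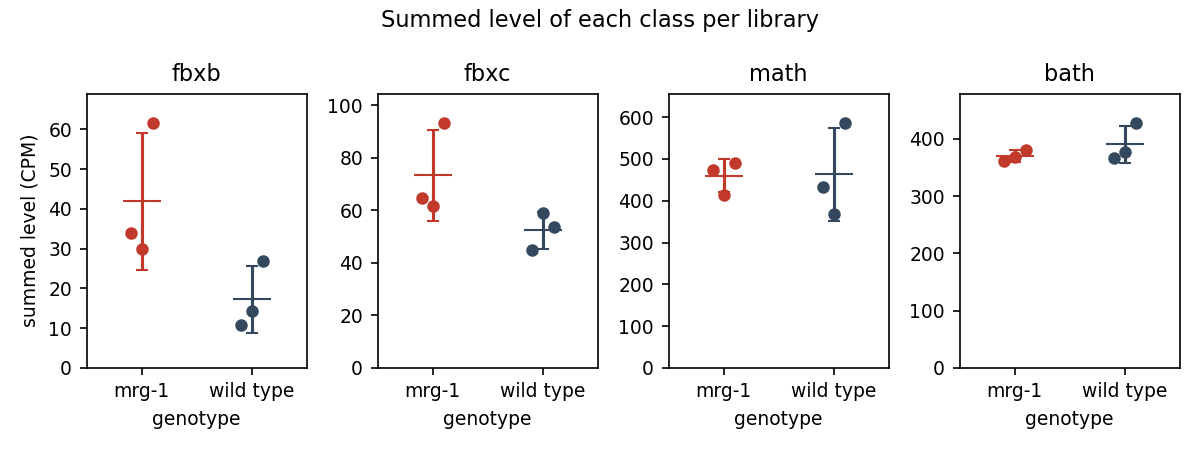
Summed level of each class (CPM, y axis from 0) in each library; points are libraries, wide lines are means and bars are SD (n = 3 each), with *mrg-1* left and wild type right. The lowest *mrg-1* library stands above the highest wild-type library for *fbxb* (30.0 against 26.8 CPM) and *fbxc* (61.8 against 58.9 CPM), and the groups overlap for *math* and *bath*.

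Of the 248 members 72 passed the expression filter and were tested with edgeR's quasi-likelihood F test: 11 *fbxb*, 18 *fbxc*, 19 *math* and 24 *bath* genes. The other 176 were not. A member could pass through the group where it was higher, so these 72 are not a sample of the families. *fbxb-26* was the single member called, and it rose. This is 1.39% of the tested members, near the 2.60% called among the 13460 genes tested (1.75% higher and 0.847% lower). At an unadjusted p under 0.05, 9 members were higher and 3 lower in *mrg-1*, where 9.29% of all tested genes were higher and 10.2% lower. Groups without overlap were found for 15 members higher and 4 lower, 26.4% of the 72. Over all 13460 tested genes the total was also 26.4%, but with 1936 higher and 1615 lower. The members thus leaned further to the higher side, a difference that was not tested. By class the share without overlap was 45.5% for *fbxb*, 44.4% for *fbxc*, 26.3% for *math* and 4.17% for *bath*. The members' median log2 fold change was 0.39, against −0.03 over all tested genes. By class the median was 2.14 for *fbxb*, 0.52 for *fbxc*, 0.29 for *math* and 0.16 for *bath*. The filter shaped these medians. *fbxb-26* and *fbxb-65* passed through *mrg-1* alone, with 0, 2 and 4 and with 5, 1 and 4 wild-type counts. *fbxb-76*, with 4, 141 and 98 wild-type counts, did not pass. The medians thus cannot serve as support for a rise of a class. The median SE of a member was 1.14 on the log2 scale, against 0.56 over all tested genes. Another count test, DESeq2, gave adjusted p-values to 104 members and called 12 of them, 9 higher and 3 lower, or 11.5%, while it called 10.5% of all genes (5.80% higher and 4.71% lower). limma-voom called 0 of the 72 (12 higher and 2 lower at an unadjusted p under 0.05), and its share over all genes is not reported here. The edgeR count depended on single libraries: it was 0 without any 1 of the *mrg-1* libraries or without wild-type library 2, 7 without wild-type library 1 and 3 without wild-type library 3, while calls over all genes ranged from 35 to 1043.

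**Figure D3:**
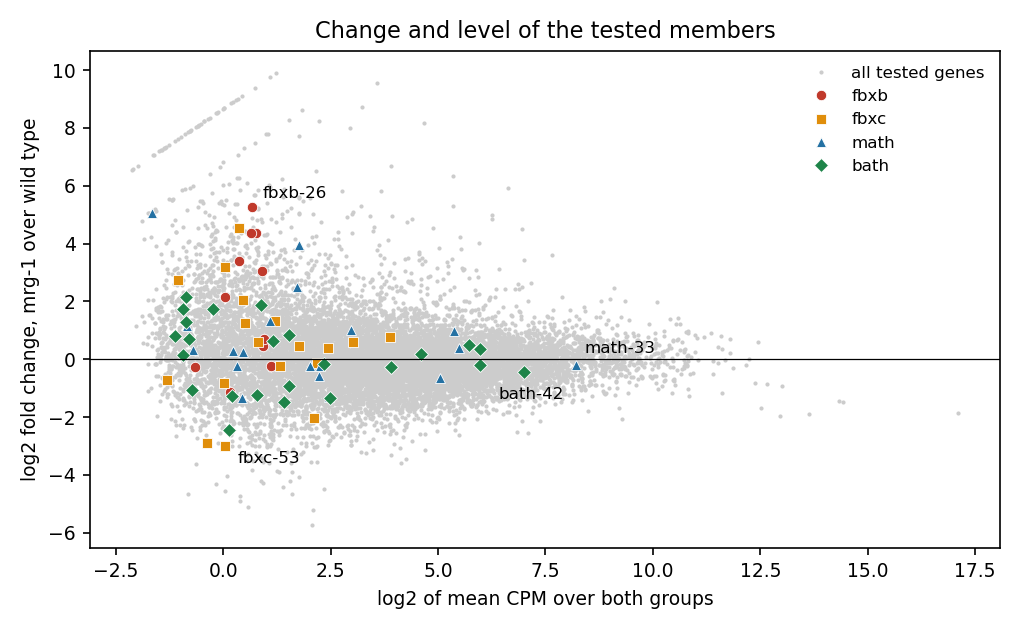
Log2 fold change of *mrg-1* over wild type (y) against log2 of the mean CPM of both groups (x); coloured symbols are the 72 tested members by class and grey dots all tested genes. *fbxb-26* at 5.28 is the highest member, the strongly expressed *math-33* and *bath-42* lie near 0, and the members spread widely at low level.

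*fbxb-26* encodes an F-box B protein with no assigned substrate and lies on chromosome II from 1682518 to 1683655 on the plus strand (WBcel235). It had 80, 49 and 112 counts in *mrg-1* libraries and 0, 2 and 4 counts in wild-type libraries, which is 3.12, 2.02 and 4.21 CPM in *mrg-1* and 0, 0.0733 and 0.146 CPM in the wild type. Every *mrg-1* library was far above every wild-type library. The gene passed the expression filter through *mrg-1* alone, and its fold rests on 6 summed wild-type counts. The mean was 3.12 ± 1.09 CPM in *mrg-1* and 0.0731 ± 0.0730 CPM in the wild type (SD, n = 3 each), 42.6-fold higher (log2 fold change 5.28, SE 1.27, edgeR adjusted p = 0.0487). Close to the threshold as it is, this p was 0.0667 with limma-voom and 6.63e-05 with DESeq2. It was 0.181, 0.149 and 0.212 without *mrg-1* library 1, 2 and 3 and 0.107 without wild-type library 2, while the log2 fold change lay between 4.77 and 6.14 with each library left out in turn.

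Among the other tested *fbxb* genes, several low ones were higher in *mrg-1* without passing edgeR's test. DESeq2 called *fbxb-65* (adjusted p = 0.000328) and *fbxb-20* (0.0205) higher, and with them *fbxb-26* and 2 members that edgeR did not test, *fbxb-13* (0.0195) and *fbxb-45* (0.0198). limma on the authors' deposited log2 values called *fbxb-26* and *fbxb-65* higher. *fbxb-65*, on chromosome V, had 4.06, 2.06 and 2.82 CPM in *mrg-1* libraries and 0.240, 0.0367 and 0.146 CPM in the wild type (log2 fold change 4.38, SE 1.15, edgeR adjusted p = 0.0641). Its groups were far apart, as those of *fbxb-26* were, and both genes passed the filter through *mrg-1* alone. *fbxb-20* had 0.975, 3.75 and 4.92 CPM in *mrg-1* and 0.480, 0 and 0 CPM in the wild type (log2 fold change 4.35, edgeR adjusted p = 0.148). *fbxb-115* had 0.936, 1.90 and 4.21 CPM in *mrg-1* against 0.673, 0 and 0 CPM. In both, wild-type library 1 held all the wild-type counts. Without it the edgeR adjusted p was 0.0259 for *fbxb-20* and 0.0334 for *fbxb-115*. No wild-type count then remains, so these fits cannot serve as support. Over the fits with 1 library left out the edgeR adjusted p reached 0.380 for *fbxb-20* and 0.569 for *fbxb-115*. *fbxb-53* had 1.75, 1.36 and 6.87 CPM in *mrg-1* and 1.15, 0.0733 and 0 CPM in the wild type, but 429 of its exon bases are shared with F36H5.10 on the same strand, so their reads cannot be told apart. Of the 5 tested *fbxb* genes with the highest mean level, *fbxb-20* and *fbxb-53* had no overlap of the groups, while *fbxb-14*, *fbxb-69* and *fbxb-114* overlapped. *fbxb-14* had 2.85, 0.825 and 2.33 CPM in *mrg-1* and 0.288, 0.257 and 6.46 CPM in the wild type, and all 639 of its annotated exon bases are shared with W08F4.12. *fbxb-69* and *fbxb-114* had log2 fold changes of 0.68 and 0.46, with a 0 in wild-type library 2 in both. *fbxb-76*, below edgeR's filter, went the other way, with 6, 5 and 3 counts in *mrg-1* and 4, 141 and 98 counts in the wild type, and DESeq2 called it lower (log2 fold change −4.02, adjusted p = 0.0106).

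The *fbxc* genes went both ways. On the higher side, *fbxc-19* had 1.75, 1.86 and 3.83 CPM in *mrg-1* libraries and 0.0480, 0.0367 and 0.219 CPM in the wild type (log2 fold change 4.53, SE 1.22, edgeR adjusted p = 0.0693). *fbxc-23* had 1.05, 3.51 and 1.05 CPM in *mrg-1* and 0, 0.440 and 0.146 CPM in the wild type (log2 fold change 3.20). Neither had overlapping groups, and neither was called by edgeR. On the lower side, *fbxc-47* had 1.21, 1.65 and 2.22 CPM in *mrg-1* and 5.57, 4.66 and 10.7 CPM in the wild type (log2 fold change −2.04, SE 0.73, edgeR adjusted p = 0.148). Its strand matters, since 78.6% of its exon bases are shared with the antisense RNA *anr-18* and the strand setting of the counting is not given in the sources used here. *fbxc-53* had 0.117, 0.330 and 0.225 CPM in *mrg-1* and 1.68, 0.953 and 2.85 CPM in the wild type (log2 fold change −3.0, edgeR adjusted p = 0.160). *fbxc-45* had 0.0390, 0.124 and 0.376 CPM in *mrg-1* and 1.49, 0.587 and 2.01 CPM in the wild type (log2 fold change −2.88). These 3 were the tested *fbxc* genes with each *mrg-1* library below each wild-type library. DESeq2 called *fbxc-19* higher and *fbxc-47* and *fbxc-53* lower, and it also called *fbxc-7* and *fbxc-55* higher, which edgeR did not test. *fbxc-55* had 6, 42 and 29 counts in *mrg-1* libraries and 1, 0 and 0 in the wild type (DESeq2 adjusted p = 0.0213).

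The *fbxc* gene with the highest level, the annotated pseudogene *fbxc-41*, had 21.3, 11.96 and 22.4 CPM in *mrg-1* and 5.86, 19.9 and 7.01 CPM in the wild type (log2 fold change 0.76, edgeR adjusted p = 0.470). Its groups overlapped through wild-type library 2. *fbxc-52* had 8.46, 10.4 and 10.7 CPM in *mrg-1* and 12.1, 4.44 and 2.96 CPM in the wild type. *fbxc-40* was even among libraries, with 6.28, 6.60 and 5.75 CPM in *mrg-1* and 4.47, 4.22 and 5.44 CPM in the wild type, a log2 fold change of 0.40 that was not called although the groups did not overlap. *fbxc-36* had a log2 fold change of −0.12.

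The *math* gene with the highest level did not differ beyond the spread between libraries. *math-33*, on chromosome V, had 277, 231 and 321 CPM in *mrg-1* libraries and 297, 238 and 417 CPM in wild-type libraries (log2 fold change −0.20, SE 0.28, edgeR adjusted p = 0.732; 0.14 with unscaled library totals). *math-41* had 63.0, 56.6 and 44.7 CPM in *mrg-1* and 25.8, 20.5 and 37.9 CPM in the wild type (log2 fold change 0.97, SE 0.35, edgeR adjusted p = 0.155). *math-4* had 61.2, 55.3 and 35.5 CPM in *mrg-1* and 56.4, 45.7 and 14.8 CPM in the wild type, overlapping groups with a log2 fold change of 0.38. *math-3*, its neighbour in the genome, leaned the other way, with 24.5, 27.1 and 26.5 CPM in *mrg-1* and 28.4, 42.2 and 50.8 CPM in the wild type (log2 fold change −0.64, edgeR adjusted p = 0.337). Its groups did not overlap, and it was not called. On the same strand 469 of its exon bases (19.6%) are shared with F36H5.14, so reads there cannot be told apart. The annotated pseudogene *math-47* had a log2 fold change of 1.0 with overlapping groups.

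The fainter *math* genes held the larger differences. *math-28* had 154, 129 and 212 counts in *mrg-1* libraries, and its 33 wild-type counts all lay in library 3, which is 6.01, 5.32 and 7.96 CPM in *mrg-1* and 0, 0 and 1.20 CPM in the wild type (log2 fold change 3.96, SE 1.41, edgeR adjusted p = 0.147). With wild-type library 3 left out its log2 fold change, which then depends on the prior count, was 10.3 and its edgeR adjusted p 0.00542. That fit is against 0 wild-type counts and cannot serve as support. Over the fits with 1 library left out its edgeR adjusted p reached 0.344. *math-42* had 4.91, 4.495 and 7.44 CPM in *mrg-1* and 2.26, 0.147 and 0.584 CPM in the wild type (log2 fold change 2.50, edgeR adjusted p = 0.186), and DESeq2 called it higher (adjusted p = 0.0409). *math-34*, named after its values were seen, had 0.546, 0.495 and 0.826 CPM in *mrg-1* and 0.0480, 0 and 0 CPM in the wild type (log2 fold change 5.05, edgeR adjusted p = 0.103). All 3 had *mrg-1* libraries above every wild-type library. *math-39* had 1.36, 0.289 and 0.638 CPM in *mrg-1* and 0.240, 0.440 and 5.18 CPM in the wild type, so its log2 fold change of −1.35 rests on wild-type library 3 and is 1.17 without it.

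**Figure D4:**
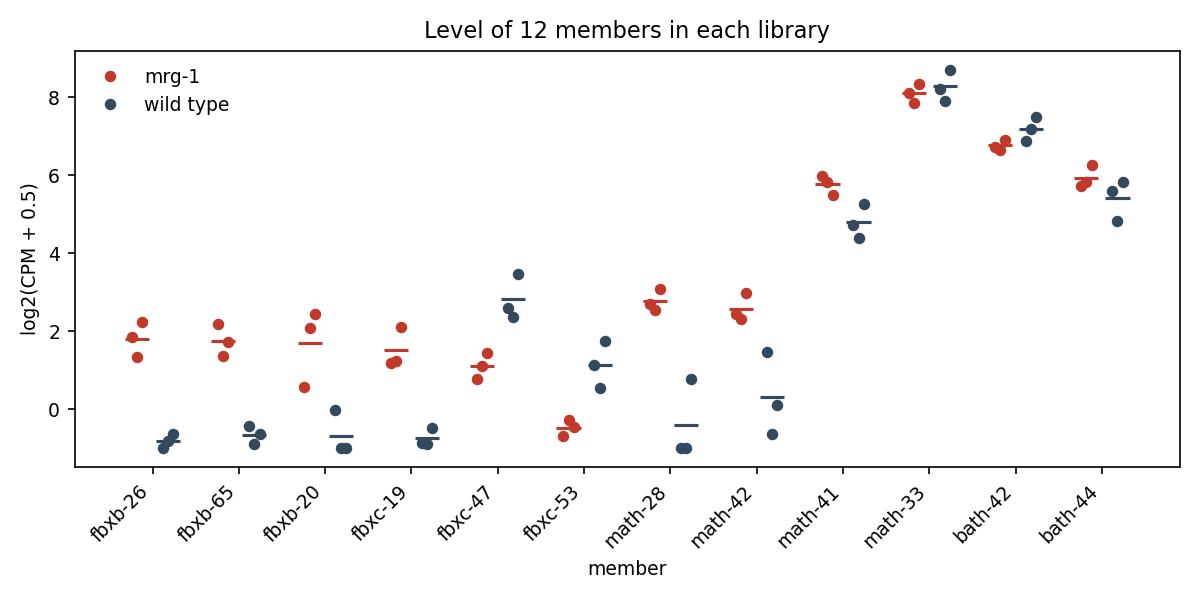
Level of 12 members in each library as log2(CPM + 0.5); points are libraries and lines are group means on that scale, with *mrg-1* left and wild type right of each position. *fbxb-26*, *fbxb-65*, *fbxb-20*, *fbxc-19*, *math-28*, *math-42* and *math-41* have all *mrg-1* points above the wild type, *fbxc-47* and *fbxc-53* below it, and *math-33*, *bath-42* and *bath-44* overlap.

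The *bath* genes encode proteins with the MATH and BTB domains of CUL-3 receptors, and the groups of their strongly expressed members overlapped. *bath-42* had 106, 100.4 and 118.7 CPM in *mrg-1* libraries and 117, 144 and 179 CPM in the wild type (log2 fold change −0.44, SE 0.28, edgeR adjusted p = 0.412). *bath-40* had 54.1, 49.9 and 73.3 CPM in *mrg-1* and 61.6, 72.1 and 67.9 CPM in the wild type. *bath-36* had 77.6, 83.9 and 48.3 CPM in *mrg-1* and 65.1, 58.8 and 42.3 CPM in the wild type. In each of these the *mrg-1* and wild-type libraries interleaved. *bath-44*, at 52.2, 56.5 and 76.2 CPM in *mrg-1* and 48.2, 27.8 and 55.8 CPM in the wild type, and *bath-38*, at 20.7, 24.2 and 32.8 CPM in *mrg-1* and 23.7, 27.2 and 17.8 CPM in the wild type, overlapped as well. The log2 fold change of *bath-38* was 0.18, and −0.03 without *mrg-1* library 3.

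Of the 24 tested *bath* genes 0 were called by edgeR, DESeq2 or limma-voom. At an unadjusted p under 0.05, edgeR and limma-voom found 0, and DESeq2 found 1 higher and 1 lower of the 29 it could adjust. Their log2 fold changes lay between −2.44 and 2.15, 13 above and 11 below 0. *bath-28* was the one *bath* gene without overlap, with 4.13, 2.56 and 2.03 CPM in *mrg-1* and 0.480, 1.65 and 0.256 CPM in the wild type (log2 fold change 1.86, edgeR adjusted p = 0.333). *bath-15* had 1.75, 2.14 and 0.338 CPM in *mrg-1* and 0.240, 8.25 and 3.21 CPM in the wild type. *bath-24* had 0.156, 0.784 and 0.0751 CPM in *mrg-1* and 1.10, 0.0367 and 4.42 CPM in the wild type. In both, the wild-type libraries ranged more widely than the groups differed.

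Some members had large values in a single library. Over the 72 tested members the median SD of log2(CPM + 0.5) was 0.50 among *mrg-1* and 0.81 among wild-type libraries, against 0.38 and 0.62 over all tested genes. The tested members were also lower in level, at a median of 3.42 TPM against 18.2 TPM, and genes of like level were not compared. A range of over 10-fold between libraries, or a 0 beside counts, was found for 9 members in *mrg-1* and 32 in the wild type. The share over all tested genes is not reported here. Chosen after their values were seen, 6 members had at least 50 counts with 80% or more of them in 1 library. *fbxc-42* had 243 of its 248 counts in wild-type library 2, and *fbxb-71* had 148 of its 153 there. *bath-10* had 120 of 143 in wild-type library 3. *fbxc-51* had 162 of 182 in *mrg-1* library 3, as *fbxb-106* had 56 of 59, and *fbxb-13* had 71 of 80 in *mrg-1* library 1. These single-library values occurred in both groups.

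By position the members are concentrated on chromosome II. It holds 172 of the 248 (69.4%), against 16.9% of all rows, and these include 62 *fbxb*, 39 *fbxc*, 45 of the 48 *math* and 26 *bath* genes. Chromosome IV holds 24, V 19, I 15, III 12 and X 6. Counting members that follow each other with no other gene of the table between them, 156 members lie in 43 runs of at least 2 genes and 92 lie alone; the positions are those of WBcel235, looked up by identifier. Counts in *mrg-1* with 0 in the wild type were found for 36.5% of the members in runs and 23.9% of those alone. Members in runs were also lower in level, at a median of 0.202 TPM against 0.409 TPM. Members of like level were not compared. The largest run, 12 *math* genes on chromosome II, had no tested member, and 4 of its genes had no count. A run of 10 on chromosome IV, made of copies of *fbxc-4*, *fbxc-5* and *fbxc-8* and of *fbxc-12*, had 9 members with no count. How reads that match several copies were assigned is not given in the sources used here, so counts of such copies are uncertain.

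Neighbours shared a direction in some runs and not in others. Of the 12 runs with at least 2 tested members, 6 held log2 fold changes of both signs, 5 were above 0 throughout and 1 below. *math-28* lies in a run with *math-27*, *math-26*, *math-3* and *math-4*, whose log2 fold changes were −0.23, −0.23, −0.64 and 0.38. *fbxc-19* lies beside *math-41* (0.97), *math-40* (−0.24) and *math-39* (−1.35). The neighbours of *fbxb-26* were too low to be tested. *fbxb-25* had 9, 5 and 2 counts in *mrg-1* libraries, *fbxb-18* had 0, 5 and 0, *fbxb-19* had 0, 1 and 10, and *fbxc-21* had 0, 0 and 5; all 4 had 0 in the wild type, and *fbxc-22* and *fbxc-26* had 0 in every library. The median log2 fold change was 0.78 for the 44 tested members in runs and −0.21 for the 28 alone, a difference that was not tested. The tested members in runs were lower in level, at a median of 2.91 TPM against 4.94 TPM. The strongly expressed *math-33*, *bath-42*, *bath-40*, *bath-36* and *bath-44* all lie alone. Position thus cannot be told apart from level and class here.

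**Figure D5:**
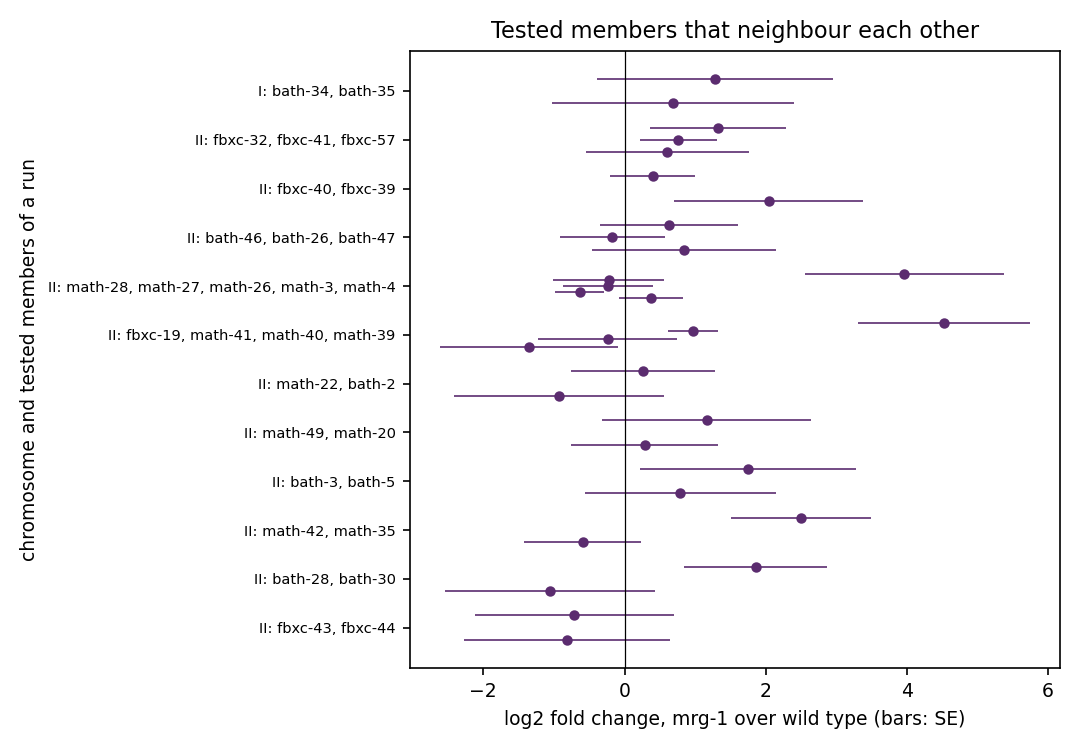
Log2 fold change of *mrg-1* over wild type (x, bars are SE) for the tested members of each run of neighbouring members, 1 row per run with its chromosome. In 6 of the 12 runs the points lie on both sides of 0, as for *math-28* and *math-3*.

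The genes of the ligase core were not called by edgeR. Of the 8 genes of the cullin and RING core 0 were called (0 higher and 1 lower at an unadjusted p under 0.05; limma-voom called 0 and DESeq2 called *rbx-2* lower), and their median log2 fold change was −0.48. *cul-1*, the SCF scaffold, had 33.4, 27.2 and 29.1 CPM in *mrg-1* and 87.2, 34.9 and 36.5 CPM in the wild type (log2 fold change −0.82, edgeR adjusted p = 0.281; −0.26 without wild-type library 1). *cul-3*, the BTB scaffold, stood at 45.8 ± 5.44 CPM in *mrg-1* and 47.1 ± 29.2 CPM in the wild type. Of the 20 Skp1-related adaptors 11 were tested and 0 called, with 3 higher and 1 lower at an unadjusted p under 0.05; DESeq2 and limma-voom also called 0. The main one, *skr-1*, stood at 443 ± 18.9 CPM in *mrg-1* and 284 ± 34.7 CPM in the wild type without overlap (log2 fold change 0.64, edgeR adjusted p = 0.173). For the neddylation and COP9 signalosome genes, which switch cullins on and off, 0 of 12 were called by edgeR and by limma-voom, with 3 lower at an unadjusted p under 0.05, and DESeq2 called *ula-1* lower. Here *cand-1* stood at 119.3 ± 6.62 CPM in *mrg-1* and 190.1 ± 27.8 CPM in the wild type.

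Calls were found among related substrate receptors. Of the 192 *fbxa* genes, the F-box A family, 108 were tested, 5 rose and 0 fell by edgeR, where 1.75% of all tested genes were called higher and 0.847% lower. Their median log2 fold change was 0.44, and 23 were higher and 3 lower at an unadjusted p under 0.05. DESeq2 called 19 of 125 higher and 1 lower, where it called 5.80% of all genes higher and 4.71% lower. limma-voom called 5 of the 108 higher and 0 lower, and its share over all genes is not reported here. *fbxa-24* stood at 371 ± 159 CPM in *mrg-1* and 30.2 ± 8.30 CPM in the wild type (log2 fold change 3.62, edgeR adjusted p = 0.000938). *fbxa-136*, *fbxa-69*, *fbxa-174* and *fbxa-170* rose as well, with edgeR adjusted p = 0.0164, 0.0303, 0.0407 and 0.0361. *fbxa-174* and *fbxa-170* had 0 counts in all 3 wild-type libraries and so passed the filter through *mrg-1* alone; at 1.57 ± 0.691 and 2.02 ± 1.07 CPM in *mrg-1* they are low genes. With each library left out in turn the adjusted p of *fbxa-24* stayed between 0.00201 and 0.00809, while *fbxa-136*, *fbxa-69*, *fbxa-174* and *fbxa-170* kept their calls in 3, 2, 1 and 2 of these 6 fits (adjusted p up to 0.103, 0.162, 0.170 and 0.162). Of 29 other BTB genes 18 were tested, and edgeR called *hpo-9* alone, lower, at 36.9 ± 5.86 CPM in *mrg-1* and 94.7 ± 27.1 CPM in the wild type (log2 fold change −1.36, edgeR adjusted p = 0.0480; up to 0.220 with a library left out). DESeq2 called *hpo-9* lower and *kel-8* higher, limma-voom called *hpo-9* lower, and limma on the authors' deposited log2 values called 0. *kel-8* had 9.32, 6.23 and 16.8 CPM in *mrg-1* and 4.996, 1.21 and 0.329 CPM in the wild type (edgeR adjusted p = 0.174). *mel-26*, whose product directs the katanin MEI-1 to degradation, stood at 59.0 ± 39.4 CPM in *mrg-1* and 88.3 ± 47.5 CPM in the wild type, with overlapping groups. *mei-1* and *ppfr-1* were not called either, by edgeR, DESeq2 or limma-voom, and neither had an unadjusted p under 0.05. Of the 7 other named F-box genes 0 were called by edgeR, DESeq2 and limma-voom, with 1 lower at an unadjusted edgeR p under 0.05, and *lin-23*, the worm β-TrCP, had a log2 fold change of 0.59. In the list made for the CUL-6 ligase of the intracellular pathogen response 8 genes were tested. They include *pals-22* and *pals-25*, which are not ligase subunits. Of the 8, 0 were called by edgeR and by limma-voom, with 3 higher at an unadjusted p under 0.05, and DESeq2 called *fbxa-158* higher. Among them *skr-3* had 51.5, 52.9 and 53.03 CPM in *mrg-1* and 14.4, 37.2 and 33.4 CPM in the wild type. Its groups did not overlap, and its log2 fold change was 0.89 with an edgeR adjusted p of 0.228.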

How the data were processed

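The raw counts deposited by the authors (20392 genes, with a length for each) were used as given, and the deposited normalized log2 values, log2 of the scaled count plus 8 as checked against the counts, served as an alternative. Per the submitters' processing notes the reads were placed on ce10. The sources used here name no aligner, counter or strand setting, nor how reads matching several genes were handled. Total RNA libraries were made from 2 ng of RNA with NuGEN Ovation kits, per the labels. The design text calls the 3 libraries of a group biological replicas and says no more, so p-values measure the spread between these libraries. Symbols of 225 members came from Ensembl names (WBcel235) and of 23 pseudogenes from RefSeq by sequence name; 9 rows share the symbols *fbxc-4*, *fbxc-5* and *fbxc-8*. The deposited length was within 10% of the annotated exon length for 148 members, which affects TPM.

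Totals were 20917771 to 24123189 counts in *mrg-1* and 19238422 to 39063186 in the wild type. Genes kept by edgeR's default filter (13460) were tested with edgeR 4.0.16 in R 4.3.3 (quasi-likelihood F test, TMM factors, group as the only term, Benjamini-Hochberg 0.05 over all tested genes). SE is the absolute log2 fold change divided by the square root of F. The fit was tested on simulated data. Floors are 3 counts over a group (0.0392 CPM in *mrg-1*, 0.0397 CPM in the wild type) and, like bounds, cover the counting error of the group at 0 only. Detection at one depth is the expected number of rows with a count after thinning. Alternatives were other scalings and filters, a replicate block, each library left out, DESeq2 1.42.0, limma 3.58.1 and, added after seeing the data, wild-type library 1 alone and protein-coding members alone. The members and gene lists were chosen with earlier results of these data known. Named members are the 5 with the highest level and up to 4 with the largest change per class, those with at least 10 counts in one group and 0 in the other, and up to 2 genes per partner list with the called ones. Figures were drawn with matplotlib 3.10.9. No sequence was used.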

Additional observations from a re-analysis of the deposited data

How the results depend on the processing

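Leaving out 1 library at a time moved the edgeR calls to 35 to 1043 over all genes, to 0 to 7 among the members, and the members' median log2 fold change to 0.34 to 1.11. Calls over all genes numbered 215 with unscaled library totals (204 higher and 11 lower, against 236 and 114), 734 without an expression filter and 1534 with DESeq2. Member calls numbered 2 without a filter, 12 with DESeq2, 0 with limma-voom and 4 with limma on the authors' deposited log2 values. The shares over all genes are not reported here for the limma fits. The members' median was 1.89 without a filter and 1.79 against wild-type library 1 alone. On the log2 scale, with unscaled library totals the summed level was 0.80 for *fbxc*, 0.33 for *math* and 0.24 for *bath*. With TMM scaling, as in the main results, and without the leading member it was 0.33 for *math* and 0.10 for *bath*. The cause of these shifts was not tested. Scaling moved the median of all tested genes, which was −0.03 as reported, 0.27 with library totals and 0.35 in the authors' table.

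Over the 35 tested named members, 504 of 554 alternative values kept direction and side of the threshold, 18 gained a call, 6 lost one and 26 changed sign. *fbxb-26* lost its call under 6 alternatives (adjusted p 0.0402 to 0.212 with a library left out). Sign changes with library totals were *bath-40* (0.12), *fbxb-14* (0.37), *fbxc-36* (0.22) and *math-33* (0.14), and with the authors' values the same 4 (0.12, 0.95, 0.11 and 0.15). Against wild-type library 1 alone they were *fbxb-14* (2.79), *fbxc-36* (1.09), *math-4* (−0.14), *math-39* (1.66), *fbxc-52* (−0.28) and *bath-15* (2.55), and limma-voom gave *fbxb-14* 1.06. With a library left out the ranges crossed 0 for *fbxb-14* (−0.76 to 2.87), *fbxc-36* (−0.92 to 0.22), *math-39* (−2.05 to 1.17), *bath-38* (−0.025 to 0.33), *math-33* (−0.38 to 0.065) and *fbxb-114* (−0.13 to 3.23).

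Same-numbered libraries did not deviate together (correlations −0.00482, 0.0433 and 0.0930), so the numbers were not taken as pairs. With the replicate block edgeR called 431 genes (290 higher and 141 lower) and 1 member, *math-28* instead of *fbxb-26* (adjusted p 0.0485 and 0.0610); the members' median was 0.66 and *fbxb-14* had 1.19. Leaving out members with a near-identical protein was not run, since no protein sequences were used.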
